A study of Mus musculus with 32 samples.

Results

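The chromatin of 10 genes of fibroblast growth factor (FGF) signalling was examined in mouse limb buds: the ligands Fgf4, Fgf8, Fgf9 and Fgf10, the receptors Fgfr1 and Fgfr2, and the feedback inhibitors Dusp6, Spry1, Spry2 and Spry4. A site was assigned to a member when an ATAC-seq summit lay in the gene body or within 50 kb of it and the nearest protein-coding start belonged to that member. By this rule 164 of the 133156 accessible sites of the series were member sites, of which 27 lay within 1 kb of a start (promoter sites) and 137 lay farther away (distal sites). ATAC-seq cuts open chromatin with the Tn5 transposase, and a summit is the point of strongest cutting in a called peak.

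FGFs are secreted ligands that bind receptor tyrosine kinases at the cell surface and activate the ERK branch of MAP kinase signalling. In the limb bud, FGF10 from the mesenchyme acts on FGFR2 of the overlying ectoderm, and the apical ectodermal ridge at the distal margin answers with FGF8, FGF4 and FGF9, which act back on the mesenchyme largely through FGFR1. This loop keeps the bud growing and, through the ridge FGFs, maintains Shh expression in its posterior margin. DUSP6 dephosphorylates ERK, and the Sprouty proteins SPRY1, SPRY2 and SPRY4 dampen the receptor signal. All of these inhibitors are themselves induced by FGF signalling, so they are widely used as readouts of it.

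The series holds 32 ATAC-seq libraries in 12 groups, built to ask how ETV2, an ETS-family transcription factor of the blood and endothelial lineage, affects the chromatin of the limb bud. The E10.5 HL EYFP+ and FL EYFP+ groups (3 libraries each) were hindlimb and forelimb cells sorted as positive for an Etv2 promoter EYFP transgene and negative for CD31, TIE2 and CD45, so that endothelial and blood cells were removed. Both limbs came from the same 3 pools of embryos. Single libraries represented the posterior (Shh-EGFP+) and anterior hindlimb of Shh-EGFP embryos at E10.5 and the wild-type hindlimb at E9.5. The knockout groups were posterior hindlimbs of HoxB6-Cre Tg/+; Etv2 fl/- embryos (Etv2CKO), with 2 libraries at E10.5 and 5 at E10.25, and 2 wild-type (WT) libraries of posterior hindlimb served at E10.25. All of these were prepared from pooled embryos, and HoxB6-Cre acts in the lateral plate of the hindlimb.

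In the overexpression experiment, the anterior and posterior hindlimb of the same embryos were profiled separately in 4 Control embryos (numbered 1 to 4) and 3 Etv2OE embryos (7, 9 and 10). Etv2OE embryos carried HoxB6-Cre, iHA-Etv2 and ROSA26-STOP-rtTA-IRES-EGFP, so that doxycycline given at E9.5 and E10.5 induced HA-tagged ETV2. The HA-tagged protein was present in a mosaic of cells. The labels call the Control embryos wild type, whereas the study describes littermates that received doxycycline and lacked one of the transgenes. The labels give E10.5 as the stage, whereas the study's methods describe a later harvest, so the stage of these 14 libraries is not certain.

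The lists held 13763 summits in the anterior E10.5 library, 15626 to 42742 in the Etv2CKO libraries of E10.25, and 28366 to 54676 in all others. They give each summit a position and a strength, the -log10 of a q value, and no read count, which leaves library depth unknown. Strength was therefore read as a rank percent, the position of a site's summit in its library's list from 0% (strongest) to 100% (weakest), which depends on list length, and groups were compared on a rank score that runs from 1 for the strongest summit to 0 for a site outside lists cut to one length. Promoters of limb mesenchyme markers were listed widely (4 to 10 of 10 in every library except the anterior E10.5 library, with 2), those of surface ectoderm and ridge less so (0 to 8 of 12), and the endothelial promoters of Cdh5, Pecam1 and Tie1 and the blood promoters of Klf1, Ptprc and Spi1 were listed in none, while that of Kdr was listed in all 32. The hindlimb genes Tbx4 and Pitx1 had a promoter summit in 3 of 3 HL EYFP+ libraries and in 1 of 3 FL EYFP+ libraries. The promoter of the forelimb gene Tbx5 did not separate the limbs, with a summit in 1 of 3 libraries of each. These are bulk samples, in which fewer open cells and less opening per cell cannot be told apart.

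The sequences of 8 distal sites and 1 promoter are shown because the results below turn on them. They are the sites that passed a test between groups (Fgf10 at 31.9 and 105.4 kb, Spry1 at 18.2 kb, Spry2 at 24.3 kb upstream), the distal sites of Fgf10 (110.6 kb) and Fgf8 (16.8 kb) listed in EYFP+ libraries but in no Etv2CKO library, and the most widely listed elements of Fgfr1 and Dusp6. Each distal sequence is the 200-bp interval of the site on the forward strand of GRCm38.p6 (mm10), and the Dusp6 promoter is the 250 bases before its start, taken from the RefSeq promoter table of the same build. Capitals mark the ETS words AGGAAGT and AGGAAAT or their reverse complements, which share the GGAA core and cannot match at the same position.
Fgf8, 16.8 kb downstream of its start, outside the gene, chr19:45725801-45726000: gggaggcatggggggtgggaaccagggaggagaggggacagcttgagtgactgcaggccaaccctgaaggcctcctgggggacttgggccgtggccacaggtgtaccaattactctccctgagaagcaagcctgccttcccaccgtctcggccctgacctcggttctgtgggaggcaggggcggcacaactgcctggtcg
Fgf10, 31.9 kb downstream, in an intron, chr13:118746514-118746713: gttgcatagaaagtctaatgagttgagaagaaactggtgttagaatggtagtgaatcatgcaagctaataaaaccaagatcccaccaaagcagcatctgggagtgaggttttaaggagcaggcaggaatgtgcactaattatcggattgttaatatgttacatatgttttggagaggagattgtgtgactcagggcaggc
Fgf10, 105.4 kb downstream, beyond the 3′ end, chr13:118820005-118820204: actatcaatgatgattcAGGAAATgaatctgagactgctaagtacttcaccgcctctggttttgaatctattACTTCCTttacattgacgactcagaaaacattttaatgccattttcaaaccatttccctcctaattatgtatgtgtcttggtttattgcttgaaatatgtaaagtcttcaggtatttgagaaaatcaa
Fgf10, 110.6 kb downstream, beyond the 3′ end, chr13:118825163-118825362: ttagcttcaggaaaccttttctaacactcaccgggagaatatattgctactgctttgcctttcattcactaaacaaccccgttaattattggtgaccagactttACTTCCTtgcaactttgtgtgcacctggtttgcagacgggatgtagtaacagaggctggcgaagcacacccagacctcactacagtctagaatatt
Fgfr1, 11.3 kb downstream, in an intron, chr8:25543521-25543720: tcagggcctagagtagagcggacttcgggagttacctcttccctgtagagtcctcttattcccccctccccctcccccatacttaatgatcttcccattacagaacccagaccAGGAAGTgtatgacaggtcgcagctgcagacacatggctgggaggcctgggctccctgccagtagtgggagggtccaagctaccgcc
Dusp6, 22.8 kb downstream, outside the gene, chr10:99285924-99286123: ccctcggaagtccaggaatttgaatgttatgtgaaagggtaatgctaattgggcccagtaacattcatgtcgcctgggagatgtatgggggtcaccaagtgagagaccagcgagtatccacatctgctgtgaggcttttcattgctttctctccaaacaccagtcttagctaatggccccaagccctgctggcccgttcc
Dusp6 promoter, chr10:99262981-99263230: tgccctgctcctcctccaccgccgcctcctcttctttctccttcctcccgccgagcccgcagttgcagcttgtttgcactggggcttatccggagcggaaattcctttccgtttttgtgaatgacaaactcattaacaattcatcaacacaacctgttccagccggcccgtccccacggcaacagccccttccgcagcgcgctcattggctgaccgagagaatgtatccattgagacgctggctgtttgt
Spry1, 18.2 kb downstream, outside the gene, chr3:37658223-37658422: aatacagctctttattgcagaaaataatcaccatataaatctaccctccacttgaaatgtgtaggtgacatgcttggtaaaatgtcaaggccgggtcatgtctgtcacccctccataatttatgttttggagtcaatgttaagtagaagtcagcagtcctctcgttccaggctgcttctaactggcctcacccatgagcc
Spry2, 24.3 kb upstream, outside the gene, chr14:105920995-105921194: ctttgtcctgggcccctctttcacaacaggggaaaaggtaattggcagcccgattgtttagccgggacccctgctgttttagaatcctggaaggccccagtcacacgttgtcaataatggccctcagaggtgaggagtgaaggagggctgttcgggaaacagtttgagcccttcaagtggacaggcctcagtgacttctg

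Of these 9 sequences, 3 held an ETS word. The Fgf10 interval at 105.4 kb held both words, and those of Fgf10 at 110.6 kb and Fgfr1 at 11.3 kb held AGGAAGT. Over all distal member sites, either word occurred in 20 of 137 (14.6%), against 13.5% of the 104398 distal intervals of the series, so the member sites were close to the background. The Fgf10 locus held 6 of the 20 and Spry4 held 5 of them. Among promoter sites the words occurred in 1 of 27 (3.7%) members, a site of Fgf9, against 6.52% of 28758 promoter intervals. In the 250 bases before each start, 1 of the 7 members in the RefSeq table held a word (14.3%), against 13.2% of 32851 starts. A match describes letters in the window and not a bound site.

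The loci differed widely in how many distal sites they held, and also in the length of the gene body that was searched. Fgfr2 was annotated over chr7:130162451-133123350 by its longest transcript, and Dusp6 over chr10:99263231-99267489. The counts below were not scaled to the length searched. Fgfr2 had 35 distal sites and Fgf10 had 33, followed by Dusp6 with 16, Fgfr1 with 15, Spry4 with 11, Spry1 with 10, Fgf8 and Fgf9 with 6 each and Spry2 with 5, whereas Fgf4 had none. Fgf10 and Fgfr2 thus held 15 and 18 of the 41 member sites that lay more than 50 kb from a start. Of the 137 distal sites, 62 were intronic, 2 exonic and 73 outside the gene, and 85 lay downstream of the start. Fgfr2, with its long annotated body, held 31 of the 62 intronic sites. Neighbouring sites can share a summit, and joining sites with centres up to 500 bp apart gave 105 member regions, of which 89 were distal. A member site was listed in a median of 7 libraries, 41 sites were listed in 3 or fewer, and 3 were listed in all 32, namely the Dusp6 promoter, the Dusp6 site at 22.8 kb and a Spry4 site 30.3 kb upstream. More than 16 libraries listed 25.6% of member sites against 21.9% of all sites, and for distal sites alone the shares were 24.1% and 15.0%.

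**Figure D1:**
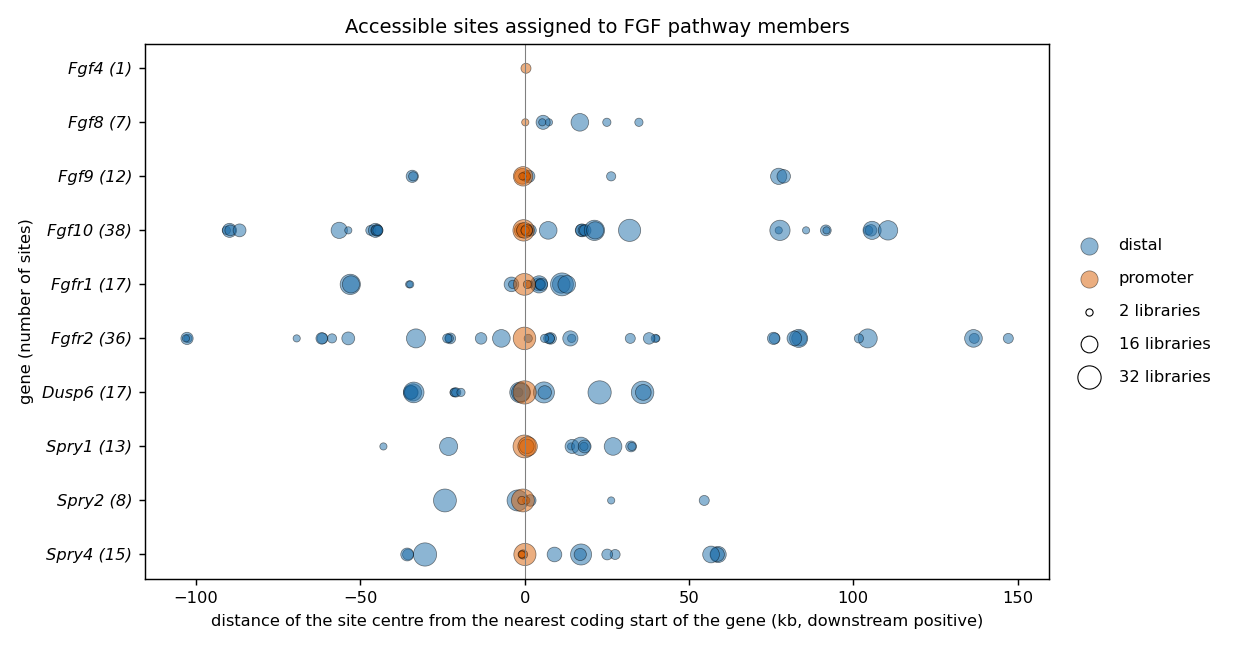
Distance of each member site from the nearest coding start of its gene (x axis, kb, downstream positive) with 1 row per gene, point size for the number of libraries listing the site, orange for promoter and blue for distal sites. Fgf10 and Fgfr2 carry 33 and 35 distal sites on both sides of the start, and Fgf4 has none.

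Among the ligands of the ridge, Fgf4 and Fgf8 had almost no promoter summit in these samples. The Fgf4 promoter (gene at chr7:144847367-144865243, forward strand) was listed in 5 libraries, at rank percents of 95.9 in FL EYFP+ pool 2, 89.3 in the posterior E10.5 library, 97.7 at E9.5, 82.8 in WT E10.25 replicate 1 and 87.8 in Etv2CKO E10.25 replicate 3. The Fgf8 promoter (gene at chr19:45736798-45742915, reverse strand) was listed in 2 libraries, at 90.9 in Etv2CKO E10.25 replicate 5 and 98.6 in the posterior hindlimb of Control embryo 4. All of these were among the weak summits of their lists. Both genes are known for expression in the ridge, a thin epithelium, and the 12 promoters of ridge and ectoderm markers ranged from 27 libraries for Tfap2c, 23 for Sp8, 17 for Epcam and 14 for Cdh1 to 0 for Krt5 and Krt14.

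The Fgf8 site 16.8 kb downstream was listed more widely than the promoter. It ranked at 46.2 and 37.3 in HL EYFP+ pools 1 and 3 and was not listed in pool 2, and it ranked at 62.7, 24.8 and 8.5 in the 3 FL EYFP+ libraries. It was listed in 0 of the 7 Etv2CKO, 0 of the 2 WT E10.25 and 0 of the single posterior, anterior and E9.5 libraries. In the overexpression experiment it ranked at 53.9 to 64.1 in the 4 anterior and 39.3 to 91.5 in the 4 posterior Control libraries, at 54.7 and 67.7 in 2 of the 3 anterior and at 49.1, 87.8 and 87.8 in the posterior Etv2OE libraries. The site was thus listed in 5 of the 6 EYFP+ and 13 of the 14 overexpression libraries and in none of the other 12, which include wild-type limbs.

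Fgf9 (chr14:58070547-58112720, forward strand), a further ligand of the ridge, had 3 coding starts. The promoter region at the first of them was listed in 6 libraries. A promoter site in an intron, 493 bp upstream of a later start, was listed in 22 libraries. It ranked at 36.3 and 49.3 in HL EYFP+ pools 2 and 3 and at 65.9 and 51.4 in FL EYFP+ pools 2 and 3, and pool 1 lacked it in both limbs. The rank percents were 27.3 to 66.4 in the 4 anterior and 36.5 to 59.4 in the 4 posterior Control libraries. In Etv2OE it was listed at 82.3 in 1 of 3 anterior and at 76.1 and 83.9 in 2 of 3 posterior libraries. The distal Fgf9 site 77.3 kb downstream was listed in 15 libraries, among them 3 of 3 FL EYFP+ (47.0, 58.9 and 64.6) and 0 of 3 HL EYFP+ libraries.

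Fgf10 (chr13:118669791-118792115, forward strand, coding transcript starting at 118714699), the mesenchymal ligand needed for the bud to form, was open in nearly all samples. Its main promoter site, 333 bp upstream, was listed in 27 libraries, at 10.21, 12.1 and 13.4 in HL EYFP+ and 8.67, 15.4 and 23.0 in FL EYFP+ libraries, 12.9 and 17.7 in WT E10.25 libraries, and 29.1 and 13.8 in 2 of 5 Etv2CKO E10.25 libraries. Counting every Fgf10 promoter site, 31 of the 32 libraries listed one, the anterior E10.5 library being the exception. In Etv2OE this site ranked at 25.9 to 35.5 anteriorly and 37.0 to 45.8 posteriorly, against 17.0 to 38.4 and 12.4 to 30.4 in Control. In lists of one length the posterior groups overlapped, at scores of 0.59, 0.555, 0.806 and 0.691 in Control and 0.388, 0.597 and 0.493 in Etv2OE embryos (limma adjusted p = 0.84).

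The strongest Fgf10 distal site was the intronic site at 31.9 kb, listed in 29 libraries and among the best 10000 summits of 25. It ranked at 3.32, 1.44 and 12.7 in HL EYFP+, at 2.49, 3.56 and 9.94 in FL EYFP+, and at 2.47 to 12.4 in the 14 libraries of the overexpression experiment. In the E10.5 Etv2CKO libraries it ranked at 20.8 and 45.2, in the WT E10.25 libraries at 14 and 23.9, and in the E10.25 Etv2CKO libraries at 83.6, 40 and 40.5 in replicates 1, 3 and 5 and was not listed in 2 and 4. It was also not listed at E9.5. Both Etv2CKO groups were thus at weaker ranks than the group each was compared with.

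Farther downstream, 2 Fgf10 sites were weak or missing in the Etv2CKO libraries. The site at 77.7 kb ranked at 19.8, 18.1 and 66.9 in HL EYFP+, at 4.01, 15.1 and 18.8 in FL EYFP+ and at 45.9 and 62.5 in WT E10.25 libraries, whereas 1 of 7 Etv2CKO libraries listed it, at 94.6. The site at 110.6 kb ranked at 55.1, 37.0 and 90.6 in HL EYFP+ and 4.82, 23.8 and 35.3 in FL EYFP+ libraries, was listed in 1 of 2 WT E10.25 libraries at 85.4, and in 0 of 7 Etv2CKO libraries. In the overexpression experiment the 110.6-kb site was listed in all 14 libraries and ranked better posteriorly than anteriorly in 7 of 7 embryos. Of 13081 sites listed in all 14 libraries, 7.1% ranked better posteriorly and 1.5% anteriorly in every embryo, and posterior lists were longer. In lists cut to 30000 summits, the Fgf10 site again scored higher posteriorly in 7 of 7 embryos, as did 3.1% of these sites.

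**Figure D2:**
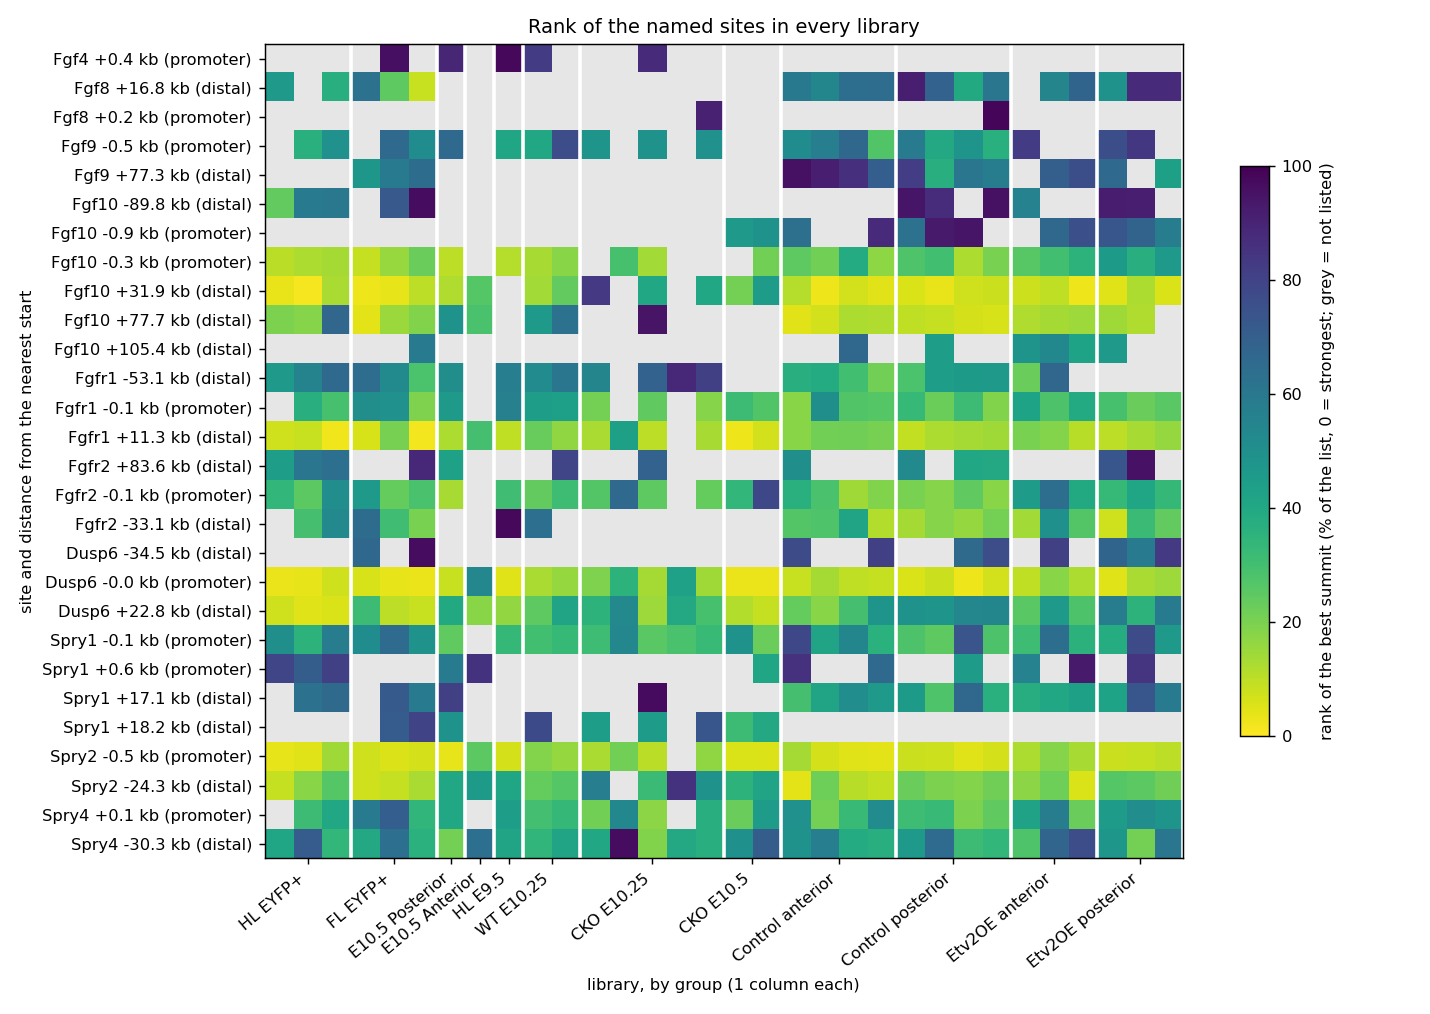
Rank percent of named member sites (rows, with distance from the start in kb) in each of the 32 libraries (columns, by group), where the colour runs from 0 (strongest) to 100 (weakest) and grey means not listed. The Dusp6 promoter is coloured in every column, and the Fgf10 row at 77.7 kb is grey in 6 of the 7 Etv2CKO columns.

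The receptor Fgfr1 (chr8:25513654-25575718, forward strand), the main FGF receptor of the limb mesenchyme, had one of the most widely listed intronic elements. The site at 11.3 kb was listed in 31 libraries and among the best 10000 summits of 30, at 7.33, 8.30 and 2.02 in HL EYFP+, 6.12, 20.5 and 1.78 in FL EYFP+, 2.61 and 6.69 in the E10.5 Etv2CKO, and 23.0 and 16.5 in the WT E10.25 libraries. The E10.25 Etv2CKO libraries listed it at 12.6, 43.2, 9.81 and 13 in replicates 1, 2, 3 and 5. The overexpression experiment kept it between 9.05 and 21.7. The ranks of this element overlapped between Etv2CKO and the other groups at both stages. The Fgfr1 promoter site 75 bp upstream was listed in 28 libraries, at weaker ranks of 18.0 to 56.3.

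Another Fgfr1 site, 53.1 kb upstream, was listed in 24 libraries. It ranked at 46.2, 55.4 and 65.7 in HL EYFP+ libraries and was in neither E10.5 Etv2CKO library. In the posterior hindlimb it ranked at 28.2 to 45.9 in all 4 Control libraries and was in none of the 3 Etv2OE libraries, while anteriorly 2 of 3 Etv2OE libraries listed it, at 22.9 and 67.1. The intronic site at 12.8 kb was listed in 14 of 14 libraries of the overexpression experiment and in 2 of 2 WT E10.25 and 2 of 3 FL EYFP+ libraries, but in 0 of 3 HL EYFP+ and 0 of 7 Etv2CKO libraries.

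The receptor Fgfr2 (chr7:130162451-133123350, reverse strand, its longest transcript included), which receives FGF10 in the ectoderm, had a promoter site 65 bp upstream that was listed in 30 libraries. It ranked at 33.8, 25.3 and 51.0 in HL EYFP+, at 45.8, 23.6 and 28.6 in FL EYFP+, and at 33.9 and 78.4 in the E10.5 Etv2CKO libraries. The distal site 33.1 kb upstream was listed in 21 libraries, including all 14 of the overexpression experiment (7.04 to 49.7). It was listed in HL EYFP+ pools 2 and 3 at 29.4 and 52.9, in all FL EYFP+ libraries at 64.7, 30.6 and 20.2, and in 0 of 7 Etv2CKO libraries. The number of Fgfr2 distal sites per library was 2, 8 and 7 in HL EYFP+, 5, 8 and 17 in FL EYFP+, 0 to 6 in the 7 Etv2CKO libraries and 12 to 20 in the 8 Control libraries, so no library listed more than 20 of the 35 Fgfr2 sites.

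The 3 sites listed in all 32 libraries belonged to feedback inhibitors. Dusp6 (chr10:99263231-99267489, forward strand) had its promoter summit in all 32 libraries and among the best 10000 in each, at 2.84, 3.75 and 7.04 in HL EYFP+, 6.24, 3.52 and 2.97 in FL EYFP+, and 2.96 and 3.10 in the E10.5 Etv2CKO libraries. The E10.25 libraries ranked it at 12.7 and 15.7 in WT and 19.3, 35.5, 13.4, 42.8 and 14.5 in Etv2CKO. The 14 libraries of the overexpression experiment ranked it at 2.63 to 17.8. The weakest rank percent, 53.7, was in the shortest list, that of the anterior E10.5 library.

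The Dusp6 site at 22.8 kb was also listed in all 32 libraries. It ranked at 7.41, 5.00 and 5.77 in HL EYFP+, 31.3, 10.15 and 8.49 in FL EYFP+, and 11.5 and 8.91 in the E10.5 Etv2CKO libraries. In Control embryos it ranked at 23.7, 17.9, 29.3 and 48.2 anteriorly and at 48.9, 48.3, 53.6 and 54.2 posteriorly. In Etv2OE it ranked at 25.7, 46.4 and 27.8 anteriorly and at 57.8, 35.5 and 59.2 posteriorly, where embryo 9 had the better rank on its posterior side. A further Dusp6 site at 35.9 kb was listed in 30 libraries at a median rank percent of 11.2.

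Spry2 (chr14:105891947-105896819, reverse strand) had a strong promoter and one strong distal site. The promoter site 549 bp upstream was listed in 31 libraries, at 3.58, 4.70 and 14.2 in HL EYFP+, 7.30, 5.21 and 6.30 in FL EYFP+, and 5.53 and 5.18 in the E10.5 Etv2CKO libraries. The distal site 24.3 kb upstream was listed in 31 libraries as well, at 8.80, 17.8 and 26.4 in HL EYFP+ and 7.38, 8.87 and 12.7 in FL EYFP+. It ranked at 23.6 and 26.2 in WT E10.25, at 57.3, 31.8, 85.2 and 48.6 in 4 of 5 Etv2CKO E10.25 and at 35.3 and 41.6 in Etv2CKO E10.5 libraries. No Etv2CKO library thus reached the rank percents of its comparison group. By the -log10 of the q value, however, Etv2CKO E10.25 replicate 3 was at 25.3, above the WT libraries at 24.8 and 20.6.

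Spry1 (chr3:37639947-37644598, forward strand) had a mid-ranking promoter site 70 bp upstream, listed in 31 libraries, at 50.1, 35.5 and 58.2 in HL EYFP+ and 48.9 and 22.7 in the E10.5 Etv2CKO libraries. Its distal sites at 17.1 and 18.2 kb behaved differently. The 17.1-kb site was listed in 14 of 14 libraries of the overexpression experiment, where the 18.2-kb site was listed in 0 of 14. The 18.2-kb site was listed in 0 of 3 HL EYFP+ libraries, 2 of 3 FL EYFP+ (71.1 and 79.4), 1 of 2 WT E10.25 (77.6), 3 of 5 Etv2CKO E10.25 (44.5, 44.7 and 73.4) and 2 of 2 Etv2CKO E10.5 libraries (31.4 and 39.6). Spry4 had a promoter site 65 bp downstream of its start in 29 libraries and the site 30.3 kb upstream in all 32, at rank percents of 19.0 to 96.5.

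The number of distal member sites was smallest in the shortest lists, although lists of similar length also differed (25 sites among 34493 summits in one Etv2CKO E10.5 library, 41 among 34360 in one HL EYFP+ library). It was 33, 42 and 41 in HL EYFP+, 44, 51 and 67 in FL EYFP+, 25 and 25 in Etv2CKO E10.5, 44 and 30 in WT E10.25 and 31, 8, 44, 21 and 28 in the 5 Etv2CKO E10.25 libraries. As a share of all distal intervals listed, member sites made up 0.139 to 0.171% in HL EYFP+, 0.148 to 0.188% in FL EYFP+, 0.108 to 0.135% in Etv2CKO E10.5, 0.133 to 0.143% in WT E10.25 and 0.12 to 0.21% in Etv2CKO E10.25 libraries. HL EYFP+ and Etv2CKO E10.5 did not overlap in this share, which was not tested. Control and Etv2OE overlapped in it, at 0.161 to 0.187% and 0.163 to 0.196% anteriorly and 0.145 to 0.161% and 0.154 to 0.168% posteriorly, although Control lists were longer than Etv2OE lists (40945 to 45762 against 32666 to 37993 anteriorly, 51265 to 54676 against 38148 to 47051 posteriorly).

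**Figure D3:**
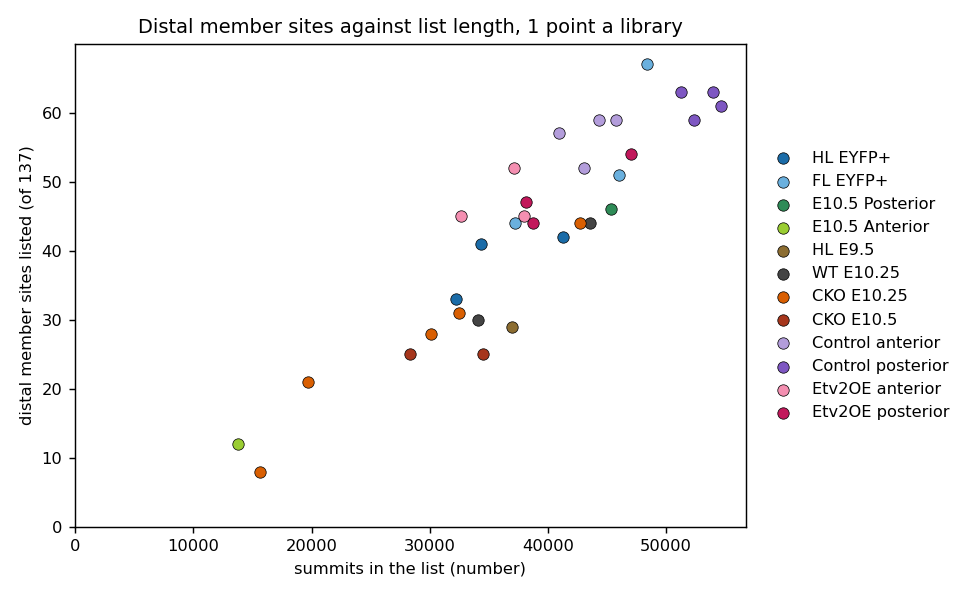
Distal member sites listed (y axis, out of 137) against the number of summits in the list (x axis) for the 32 libraries, coloured by group. The shortest lists hold 12 and 8 member sites, and the largest number, 67, is in one FL EYFP+ library.

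The sites at which EYFP+ and Etv2CKO libraries parted were counted by presence, with a rule chosen after the values were seen. Of the 105 member regions, 5 (4.76%) were listed in at least 5 of 6 EYFP+ libraries and in 0 of 7 Etv2CKO libraries, against 2.56% (2376) of the 92691 regions of the series. They were Fgfr2 33.1 kb upstream, Fgfr1 4.03 kb upstream, Fgf10 at 110.6 kb, Spry4 35.5 kb upstream and Fgf8 at 16.8 kb. In the opposite direction, 0 of 105 member regions were listed in at least 6 of 7 Etv2CKO and in 0 of 6 EYFP+ libraries, against 0.21% (195) of all regions. The rule sets limbs, stages, sorting and list lengths side by side, so that genotype cannot be told apart from them.

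The E10.5 comparison of HL EYFP+ (3 libraries) with Etv2CKO posterior hindlimb (2 libraries) asked how cells marked by the Etv2 promoter transgene differ from limbs without ETV2. The study describes EYFP as outlasting the mRNA, so the mark can reflect earlier Etv2 expression. In lists of 25000 summits, limma tested 35005 sites, of which 3.97% (1388) were called at an adjusted p of 0.05 (1.23% higher and 2.73% lower in HL EYFP+). Of the 46 member sites that passed the filter, 1 was called, the Spry1 site at 18.2 kb. Its rank scores were 0, 0 and 0 in HL EYFP+ and 0.567 and 0.550 in Etv2CKO. The difference was 0.559 ± 0.062 (SE) toward Etv2CKO (limma adjusted p = 0.0271). The site met the filter of 2 libraries only through the 2 Etv2CKO libraries, where it was high. The HL EYFP+ scores of 0 have no spread of their own. A neighbouring Spry1 site lies 207 bp away, and over a 500-bp interval the adjusted p was 0.0208. Without HL EYFP+ pool 1 or pool 2 the adjusted p was 0.0775 or 0.0808. Without either Etv2CKO library the site fell below the filter of 2 libraries, so it could not be tested there. Spry1, an inhibitor of FGF signalling, was thus the single member with a site called here, and its promoter was listed in both groups.

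The other member sites of this comparison did not pass. The median difference was 0.116 toward HL EYFP+ over the 46 member sites and 0.0086 over all sites tested, and 29 of the 46 were higher and 17 lower in HL EYFP+. At an unadjusted p of 0.05, 3 member sites were higher (background 6.88%) and 2 lower (10.0%). By presence, 3 member sites were in every HL EYFP+ and no Etv2CKO library (background 5.74%) and 2 in the reverse (7.78%).

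The Dusp6 site at 5.85 kb was nearest to the threshold among those higher in HL EYFP+, at 0.875, 0.658 and 0.783 in HL EYFP+ and 0.217 and 0 in Etv2CKO, a difference of 0.663 ± 0.111 (limma adjusted p = 0.0554, and 0.0398 with 500-bp intervals). The Fgf10 promoter site 927 bp upstream was at 0 in every HL EYFP+ library and at 0.369 and 0.447 in Etv2CKO (limma adjusted p = 0.052). It met the filter of 2 libraries only through the Etv2CKO libraries, where it was high. Limma called it toward Etv2CKO in whole lists (adjusted p = 0.0353), without the filter (0.0318) and with 500-bp intervals (0.0398). The intronic Fgf10 site at 31.9 kb scored 0.957, 0.976 and 0.826 against 0.713 and 0.487, at a difference of 0.32 ± 0.104 (limma adjusted p = 0.223). Fgf10 at 77.7 kb scored 0.744, 0.702 and 0.0807 against 0 and 0 (limma adjusted p = 0.395), and without HL EYFP+ pool 3 the difference was 0.723 with an adjusted p of 0.0479. Ectoderm and ridge promoters were listed 3 to 4 of 12 in HL EYFP+ and 1 to 2 of 12 in Etv2CKO libraries, and those of limb mesenchyme 7 to 10 and 7 to 9 of 10, and their part in these differences was not tested. Sorting, limb region and genotype go together in this comparison and cannot be told apart.

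The E10.25 comparison set WT (2 libraries) against Etv2CKO (5 libraries) in posterior hindlimb of the same stage. In lists of 15000 summits, 24300 sites were tested and 2.04% (495) were called, mostly higher in WT (1.7% higher, 0.342% lower). Of the 31 member sites tested, 2 were called, both higher in WT. The Fgf10 site at 31.9 kb scored 0.593 and 0.456 in WT and 0, 0, 0, 0 and 0.186 in Etv2CKO, a difference of 0.488 ± 0.0783 (limma adjusted p = 0.0338). The Spry2 site 24.3 kb upstream scored 0.314 and 0.406 in WT and 0, 0, 0.0952, 0 and 0.0231 in Etv2CKO, a difference of 0.336 ± 0.0583 (limma adjusted p = 0.0439). The Fgf10 site met the filter of 2 libraries only with the WT libraries, where it was high. Fgf10 is the ligand of the mesenchyme, and Spry2 is an inhibitor of the pathway.

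The Fgf10 call was kept without Etv2CKO replicate 5 (limma adjusted p = 0.0351) and lost without either WT library or any of Etv2CKO replicates 1 to 4 (0.0527 to 0.415), and the Spry2 call was lost without any 1 of the 7 libraries (0.0531 to 0.582). In whole lists the Fgf10 and Spry2 sites were not called (limma adjusted p = 0.334 and 0.489), while the Fgfr1 site at 12.8 kb (difference 0.515, adjusted p = 0.006) and the Fgf10 site at 77.7 kb (0.448, adjusted p = 0.0168) were. The median difference over the 31 member sites was 0.0691 toward Etv2CKO, with 11 sites higher and 20 lower in WT, against 0.002 toward Etv2CKO over all sites. At an unadjusted p of 0.05, 2 member sites were higher in WT (background 8.23%) and 2 lower (3.52%), and no member site was in every library of one group and none of the other (backgrounds 3.32% and 1.06%). The 2 WT libraries share one date in the labels and the Etv2CKO libraries have others, so date and genotype cannot be told apart.

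The overexpression experiment asked whether added ETV2 changes limb chromatin. In the anterior hindlimb, 46626 sites were tested in lists of 30000 summits, and 0.139% (65) were called (0.0643% higher and 0.0751% lower in Etv2OE). Of 62 member sites tested, 1 was called, the Fgf10 site at 105.4 kb, with scores of 0, 0, 0.0172 and 0 in Control and 0.403, 0.419 and 0.470 in Etv2OE embryos. The difference was 0.427 ± 0.0405 toward Etv2OE (limma adjusted p = 0.021). The site met the filter of 2 libraries only through the Etv2OE libraries, where it was high. The site lies 313 bp from a neighbour at 105.7 kb, which ranked at 50.9, 78.6 and 66.5 in 3 of 4 Control and at 53.3 and 41.8 in 2 of 3 Etv2OE libraries. Over a 500-bp interval that held both, the difference was 0.216 with an limma adjusted p of 0.894, so the call rested on which of the adjacent positions held the summit. The call was kept without Etv2OE embryo 7 (adjusted p = 0.041) and lost without Etv2OE embryo 9 or 10 or any of the 4 Control embryos (0.0513 to 0.0814).

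In the posterior hindlimb, 53801 sites were tested in lists of 35000 summits and 0.156% (84) were called (0.0818% higher and 0.0743% lower in Etv2OE), but 0 of the 69 member sites tested with limma. At an unadjusted p of 0.05, 2 member sites were higher in Etv2OE (background 3.01%) and 3 lower (3.21%). The Fgfr1 site 53.1 kb upstream scored 0.579, 0.350, 0.289 and 0.292 in Control and 0, 0 and 0 in Etv2OE embryos, a difference of 0.377 toward Control (limma adjusted p = 0.381), and in whole lists the difference was 0.59 with an adjusted p of 0.0194. The Dusp6 site 34.5 kb upstream went the opposite way, at 0 in every Control and 0.0875, 0.362 and 0.0823 in Etv2OE embryos (limma adjusted p = 0.814). Without Etv2OE embryo 7, the Fgfr1 site at 11.1 kb was called (difference 0.84, adjusted p = 0.0059), a neighbour of the 11.3-kb site with which it can share a summit.

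The intronic Fgf9 promoter site 493 bp upstream of a later start scored lower in Etv2OE on both sides of the bud without passing the test. Anteriorly it scored 0.3, 0.176, 0.0182 and 0.583 in Control and 0, 0 and 0 in Etv2OE embryos (limma adjusted p = 0.907). Posteriorly it scored 0.112, 0.419, 0.246 and 0.436 against 0, 0.0859 and 0 (limma adjusted p = 0.796). The groups did not overlap on either side, but the share of all sites that also did not overlap was not counted. The spread among Control embryos was wide. Ectoderm and ridge promoters were listed 3 to 6 of 12 in anterior Control, 2 to 5 in anterior Etv2OE, 4 to 7 in posterior Control and 1 to 3 in posterior Etv2OE libraries, and their part in the Fgf9 values was not tested. The posterior Spry4 promoter scored 0.533, 0.523, 0.692 and 0.620 in Control and 0.401, 0.443 and 0.468 in Etv2OE embryos (limma adjusted p = 0.796).

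Member sites differed in both directions on both sides. The median difference was 0.0344 toward Etv2OE over the 62 anterior member sites, of which 39 were higher and 23 lower, and 0.0184 over the 69 posterior sites, of which 39 were higher. Over all sites tested it was -0.00152 anteriorly and -0.00183 posteriorly. Anteriorly 3 member sites passed an unadjusted p of 0.05 as higher (background 2.85%) and 1 as lower (2.62%), while 0 were in every Etv2OE and no Control library (0.386%) and 1 was the reverse (0.429%). Posteriorly 1 member site was in every Etv2OE and no Control library (0.429%) and 1 was the reverse (0.519%). The test of whether the response differed between anterior and posterior hindlimb called 0 of 73 member sites and 0.00669% (4) of 59756 sites (0.00167% higher and 0.00502% lower for anterior minus posterior), with 1 member site higher (background 2.47%) and 0 lower (2.35%) at an unadjusted p of 0.05. For the 200-bp interval of Fgf10 at 105.4 kb, the difference between the sides was 0.397 (limma adjusted p = 0.936).

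**Figure D4:**
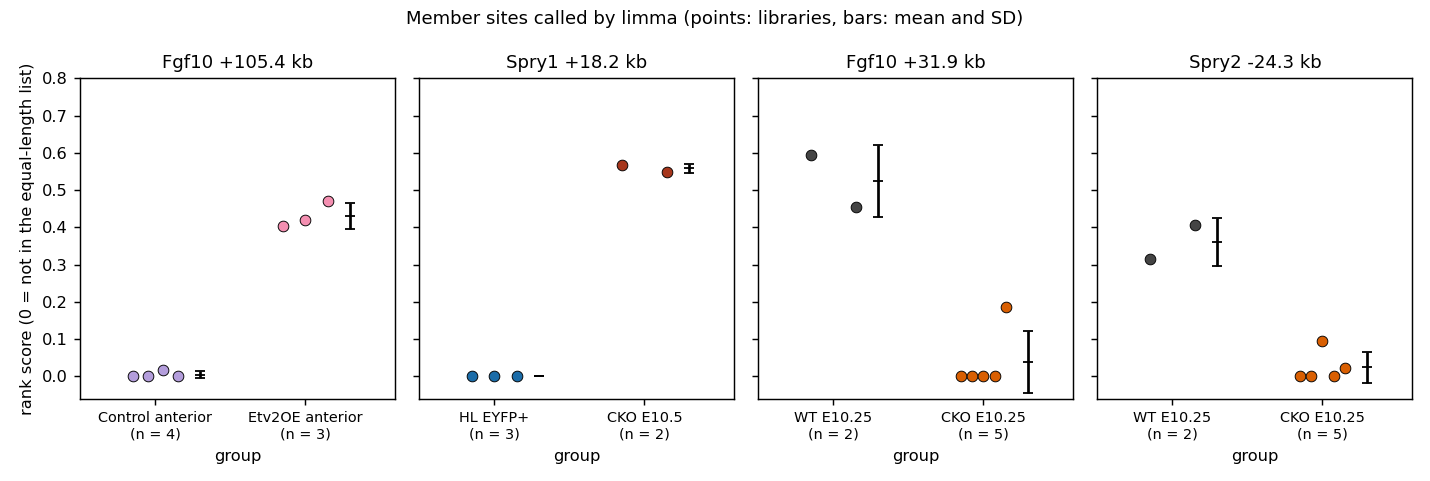
Rank score (y axis, 0 for a site outside the equal-length list) of the 4 called member sites in the groups compared, with 1 point per library and bars for the mean and SD. The sites were chosen because limma called them, so the separation of the groups in each panel adds nothing to the calls.

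The Control embryos also gave the anterior and posterior hindlimb of the same embryos, which the limma fit compared as unpaired groups. In lists of 40000 summits, 66649 sites were tested and 2.02% (1344) were called (0.929% higher anteriorly and 1.09% posteriorly), but 0 of 94 member sites by limma. At an unadjusted p of 0.05, 7 member sites were higher anteriorly (background 6.03%) and 3 posteriorly (6.48%), and 0 were in every library of one side and none of the other (backgrounds 0.941% and 1.12%). The Dusp6 site at 22.8 kb scored 0.758, 0.808, 0.675 and 0.449 anteriorly and 0.360, 0.381, 0.267 and 0.269 posteriorly, a difference of 0.353 ± 0.081 (limma adjusted p = 0.093), and it was higher anteriorly in 4 of 4 embryos. Without the anterior library of embryo 4 the difference was 0.428 and the adjusted p 0.0164. Whether this Dusp6 element passed the threshold thus turned on 1 library.

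The Fgfr2 site 7.1 kb upstream ran the other way, at 0.248, 0, 0 and 0 anteriorly and 0.268, 0.550, 0.541 and 0.408 posteriorly, a difference of 0.38 (limma adjusted p = 0.0886), higher posteriorly in 4 of 4 embryos. Without the anterior library of embryo 1 its adjusted p was 0.048, and in whole lists 0.0173. The Fgf10 site at 110.6 kb scored 0.803, 0.856, 0.785 and 0.809 anteriorly and 0.864, 0.963, 0.907 and 0.926 posteriorly, higher posteriorly in 4 of 4 embryos (difference 0.102, limma adjusted p = 0.311). The Spry2 site 24.3 kb upstream was higher anteriorly in 4 of 4 embryos, by 0.148 (limma adjusted p = 0.25). Of the 94 member sites, 5 (5.32%) were higher anteriorly and 5 higher posteriorly in all 4 embryos, against 6.21% and 6.92% of all sites tested.

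**Figure D5:**
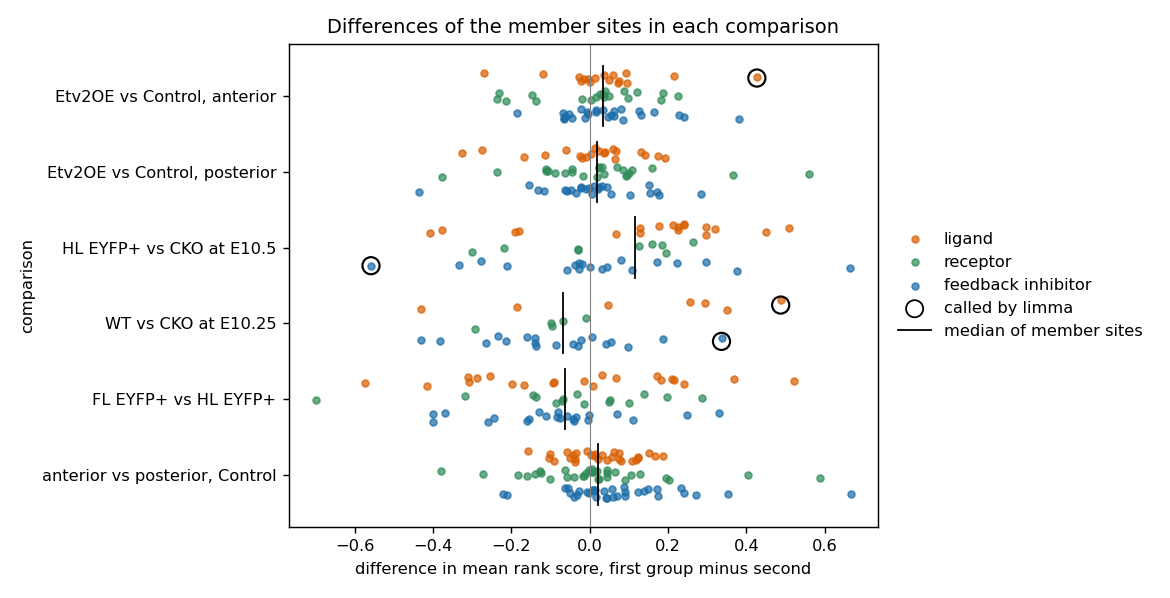
Difference in mean rank score (x axis, first group minus second) of every member site tested in 6 comparisons (rows), coloured by role, with black lines for the median of the member sites and circles for the called sites. The member medians lie between -0.0691 at E10.25 and 0.116 for HL EYFP+ against Etv2CKO.

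Forelimb and hindlimb EYFP+ cells came from the same pools, but the limma fit did not pair them. In lists of 30000 summits, limma called 0.0482% (22) of 45599 sites (0.0175% higher and 0.0307% lower in forelimb) and 0 of 58 member sites. At an unadjusted p of 0.05, 0 member sites were higher in forelimb (background 2.68%) and 5 in hindlimb (3.09%). By presence in the cut lists, 0 member sites were in all forelimb and no hindlimb libraries (background 1.33%) and 3 the reverse (1.27%). These were Fgf10 89.8 kb upstream (0.743, 0.189 and 0.312 in hindlimb), Fgfr2 at 83.6 kb (0.522, 0.162 and 0.275) and a Spry1 promoter site at 632 bp (0.151, 0.0291 and 0.0727), with limma adjusted p of 0.739, 0.647 and 0.9. In whole lists, 2 of 3 FL EYFP+ libraries listed the Fgf10 site, 1 of 3 the Fgfr2 site and 0 of 3 the Spry1 site. Joined with neighbouring sites, each of the 3 regions was listed in 2 of 3 FL EYFP+ libraries. The Spry4 site at 56.7 kb scored 0.446, 0.432 and 0.505 in hindlimb and 0.154, 0 and 0.0278 in forelimb (limma adjusted p = 0.21). The hindlimb libraries here also served against Etv2CKO, and the Control libraries of the overexpression comparisons served between anterior and posterior, so these comparisons share samples. In 3 of 3 pools the hindlimb was higher at 10 of the 58 member sites (17.2%, against 10.4% of all sites tested) and the forelimb at 7 of them (12.1%, against 10.1%).

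Across 21 further genes of the pathway, among them the ligands Fgf15 and Fgf18, the receptors Fgfr3 and Fgfr4, the Spred inhibitors and the ETS effectors Etv1, Etv4 and Etv5, 206 sites were counted by the same rule. The comparisons called 0 of 69 of these anteriorly and 0 of 84 posteriorly in Etv2OE, 0 of 88 in the test between sides, 1 of 49 between HL EYFP+ and Etv2CKO, 0 of 37 at E10.25, 0 of 69 between limbs and 1 of 103 between anterior and posterior Control hindlimb. The first was a site 16.7 kb upstream of Flrt3, a membrane protein that binds FGF receptors, at 0, 0 and 0 in HL EYFP+ and 0.523 and 0.788 in Etv2CKO (limma adjusted p = 0.0463). This Flrt3 site met the filter of 2 libraries only through the Etv2CKO libraries, where it was high. The second was a site 14.7 kb upstream of Spred1, a Sprouty-related inhibitor, higher anteriorly by 0.408 ± 0.0491 (limma adjusted p = 0.0075).

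The genes whose summed distal score followed that of Fgf10 most closely over the 32 libraries, after subtraction of each experiment's mean, were Bank1, Pdlim5 and Diaph3, with Pearson r of 0.898, 0.895 and 0.88. The median r over 4576 genes was 0.349, and the Fgf10 score itself correlated with list length at r = 0.624, so list length is shared by all of these points. These values are a description, with the libraries of one embryo or pool not independent.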

How the data were processed

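ATAC-seq was measured in 32 libraries. Reads were aligned by the authors to mm10 with Bowtie2 2.2.4, deduplicated and shifted for Tn5, and MACS2 was run on each library without pooling (no version is stated in the sources used here). Each deposited list gives the position of each summit and, as the values show, the -log10 of its q value, with a minimum near q 0.05. Peak names differ between the overexpression experiment and the other libraries, so those were not tested against each other.

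Summits outside the mitochondrial genome were placed in non-overlapping 200-bp intervals, which were kept when listed in at least 2 libraries. A library listed an interval with a summit within 200 bp of its centre. Genes and starts were from GENCODE M21 on GRCm38.p6, and the promoter sequence from RefSeq. For each of 7 comparisons, lists were cut to one length (a multiple of 5000), and rank scores were tested with limma 3.58.1 (R 4.3.3) across all intervals listed in at least 2 libraries, with Benjamini-Hochberg adjustment and a threshold of 0.05. A site at 0 in every library of a group met this filter only through the other group, where it was high. Python 3.11.15 was used for the remainder, and the fit was tested on simulated data. P-values measure the spread between these pools or embryos only, and for the Etv2CKO and WT libraries nothing says whether replicates came from separate litters.

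HL EYFP+ and FL EYFP+ libraries share pools, as the labels give, and anterior and posterior libraries share embryos. The p-values printed for forelimb against hindlimb and for anterior against posterior Control come from fits without this pairing. Deviations from the group means correlated at 0.184 to 0.421 within pools and at 0.00383 to 0.0468 within embryos. The members and lists were chosen with earlier results of these data known. Sites named by rule were those called, the most widely listed promoter and distal site of each member, and up to 3 per direction found in every library of one group and none of the other, and further sites were named after their values were seen.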

Additional observations from a re-analysis of the deposited data

Results flagged for a closer look

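Of 12 sets of values in groups of 4 or 5 libraries, 4 had 1 library far from the others, where chance alone sets about 1 in 20 groups apart in this way. Anterior Control embryo 2 listed 64 member sites, while the other anterior Control libraries listed 70 or 71. At the Fgf10 site at 105.4 kb, anterior Control embryo 3 had a rank score of 0.0172 and the other 3 were at 0. At the Fgf10 site at 31.9 kb, Etv2CKO E10.25 replicate 5 scored 0.186 and the other 4 were at 0. At the Spry2 site 24.3 kb upstream, Etv2CKO E10.25 replicate 3 scored 0.0952 and the next library 0.0231. The scores of 0 at these sites are sites outside the equal-length list, so a library that lists the site at all stands apart. These sites were also chosen because they were called. The rate of 1 in 20 therefore does not apply to these rank scores.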

How the results depend on the processing

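No result reversed. The number of member sites called changed as follows. Anterior Etv2OE against Control called 1 site, 0 in lists of 0.5 of the length, in whole lists, in lists of 20000, with a 100-bp distance or 500-bp intervals, and 2 when every site within 50 kb counted. Posterior Etv2OE called 0 sites and 1 in whole lists. HL EYFP+ against Etv2CKO at E10.5 called 1 site, 0 in lists of 0.5 of the length or of 10000 and with the replicate block, 2 in whole lists and without the filter, 3 with 500-bp intervals and 4 when every site within 50 kb counted. WT against Etv2CKO at E10.25 called 2 sites, 0 in lists of 0.5 of the length or of 10000 and with the replicate block, and 1 with a 100-bp distance. Anterior against posterior Control called 0 sites and 2 in whole lists. Leaving out 1 library gave 0 to 1 calls for both Etv2OE comparisons and at E10.25, 0 to 2 for HL EYFP+ against Etv2CKO and for anterior against posterior, and 0 for the test between sides and for FL against HL EYFP+. A group left with 1 library was assumed to vary like the others. The 164 member sites became 399 when every site within 50 kb counted, and the 27 promoter sites became 39 within 2 kb. At E10.5 and E10.25, Etv2CKO and its comparison group share only replicate numbers (same-number correlations -0.00681 to 0.0251 and 0.00213 to 0.00847), so the block there has no basis in the design. Blocking by pool or embryo changed no call. The 500-bp intervals were chosen after seeing the data. The lists hold no read counts, so a site that is not listed may be closed or below the detection of that library.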
